A study of Mus musculus with 4 samples.

Results

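Accessible chromatin around Batf, Batf2 and Batf3, the 3 genes of the BATF family, was described in microglia of WT and IRF8KO mice. The windows were chosen by gene name, as the gene body plus 20 kb on each side in the GENCODE M21 annotation of GRCm38, and the regions were chosen by the deposited peak calls within them. Of the 155546 regions merged over the whole series, 34 lay in the 3 windows, 10 at Batf, 6 at Batf2 and 18 at Batf3. The genes were picked with results of the WT and IRF8KO contrast known, so their values are a description and carry no test.

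BATF proteins are small basic leucine zipper factors of the AP-1 family. They lack the transactivation domain of FOS, pair with JUN proteins, and recruit IRF4 or IRF8 to composite elements that join an AP-1 site to an IRF site. BATF is best known from T and B cells, BATF3 from the development of type 1 conventional dendritic cells, and BATF2 as a gene induced by interferon in macrophages. Microglia are the resident macrophages of the brain, and IRF8 is one of the transcription factors on which they depend.

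The data were 4 ATAC-seq peak lists. Untreated C57BL/6 mice of 3 months, labelled WT or IRF8KO, gave sorted microglia, with 2 libraries of each genotype. The labels do not say whether replicates came from separate animals, nor how the Irf8 allele was made, so the spread between replicates may be technical. With 2 libraries against 2, the smallest exact two-sided permutation p is 1 in 3.

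The lists came from 46948938 and 48896408 tags in replicates 1 and 2 of WT, and from 78793572 and 66224648 tags in those of IRF8KO. A region is called strict in a library where its peak has a −log10 q of 2 or more. It is called WT-specific where it was strict in both WT libraries and neither IRF8KO list held a peak there, however weak, and IRF8KO-specific in the reverse case. Accessibility is given as the pileup at the highest summit, the number of overlapping extended Tn5 cut sites, per 1000000 tags of the library, abbreviated PPM. The 48262 regions strict in all 4 libraries, called shared, had a median log2 ratio of IRF8KO over WT of -0.28, and the median pileup over them was 0.958 and 0.777 PPM in the WT libraries, against 0.558 and 0.876 in the IRF8KO ones. Library-wide level therefore differed, and ratios were also recomputed with these medians set equal, termed median-centred below. A strict peak at the Irf8 promoter was called in every library, which does not check the deletion.

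Markers were read as strict peaks within 1 kb of a transcription start site (TSS). Of 7 microglia genes, 7 had one in each WT library and 6 in each IRF8KO library, the missing one being Sall1. Of 6 genes of type 1 dendritic cells, 4 had one in every library, while Xcr1 and Clec9a, which define those cells, had none in any. The summed promoter pileup of 6 T cell genes was 1.45 and 1.60 PPM in WT, against 4.16 and 4.56 in IRF8KO, with 3 and 2 of the 6 at a strict peak in WT, against 4 in each IRF8KO library. The Cd3d promoter, of a T cell receptor subunit gene, stood at 0.873 and 1.08 in WT, against 3.44 in both IRF8KO libraries, and the promoter of Cd28, a costimulatory receptor gene, had a strict peak at 0.254 and 0.498 in IRF8KO and none in WT. Cd3e and Cd3g had no promoter peak in any library. Summed over the gene body plus 20 kb, 4 of the 6 T cell genes were higher in both IRF8KO libraries, where 4.81% of all genes were, namely Cd28 (log2 ratio 2.92), Cd3e (1.60) and, with the same peaks in their windows, Cd3d and Cd3g (0.75 each). Promoter peaks of 5 B cell genes numbered 2 in each WT and 1 in each IRF8KO library. The monocyte genes Ly6c2 and Ccr2 had no strict promoter peak in any library. Promoter peaks of 4 astrocyte genes numbered 3 and 2 in WT, against 2 and 3 in IRF8KO, and those of 3 neuron genes 1 and 3, against 2 and 1. The summed astrocyte promoter pileup was 1.09 and 0.532 PPM in WT, against 1.10 and 1.98 in IRF8KO. The Aldh1l1 promoter was higher in both IRF8KO libraries, at 0.405 and 0.205 in WT, against 0.850 and 1.53. The Gfap promoter was lower in both, at 0.426 and 0.327 in WT, against 0.254 and 0.287. Window sums were lower in both IRF8KO libraries for 2 of the 4 astrocyte genes, Slc1a2 (log2 ratio -2.48, with 4 WT-specific regions) and Gfap (-0.82), and for 2 of the 3 neuron genes, Syt1 (-2.19) and Snap25 (-0.76), and higher for none of these 7. They were lower for 3 of 7 microglia, 3 of 6 dendritic cell and 2 of 5 B cell genes, and higher for none of these, where 35.4% of all genes were lower. The part of these markers in the values at the Batf genes was not tested.

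Batf3 carried the main difference. Batf3 (ENSMUSG00000026630.9) lies on the plus strand at chr1:191097847-191108945, and 4 WT-specific regions and 2 shared regions of reduced pileup lay just past its 3′ end. The 6 regions lay within a stretch of 6.25 kb, chr1:191109919-191116171, which began 973 bp past the gene and lay between genes. Distances below are counted in kb from the TSS of the coding transcript, negative upstream. The 4 WT-specific sequences and the summit windows (201 bases) of the shared region at 13.0 kb and of the upstream region at -11.6 kb are shown with the whole shared region at 16.7 kb, because these regions were WT-specific or had the lowest ratios of IRF8KO over WT in the window. They are the plus strand of GRCm38, and capitals mark a match to the ETS-IRF, ISRE, AP-1, AP-1-IRF composite or PU.1 motifs described below.

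Batf3 at 11.8 kb, WT-specific, chr1:191109919-191110215: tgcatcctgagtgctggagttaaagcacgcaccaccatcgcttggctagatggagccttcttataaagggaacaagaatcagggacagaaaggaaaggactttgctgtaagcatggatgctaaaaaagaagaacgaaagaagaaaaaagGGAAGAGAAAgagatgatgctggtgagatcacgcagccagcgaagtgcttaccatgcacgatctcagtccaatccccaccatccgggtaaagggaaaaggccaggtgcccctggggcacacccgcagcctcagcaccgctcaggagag
Batf3 at 13.0 kb, shared, reduced, chr1:191111220-191111420: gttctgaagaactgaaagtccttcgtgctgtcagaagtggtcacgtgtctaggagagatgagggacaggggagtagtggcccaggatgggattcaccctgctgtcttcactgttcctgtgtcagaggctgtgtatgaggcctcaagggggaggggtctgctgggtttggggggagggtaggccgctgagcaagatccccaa
Batf3 at 16.7 kb, shared, reduced, chr1:191114928-191115179: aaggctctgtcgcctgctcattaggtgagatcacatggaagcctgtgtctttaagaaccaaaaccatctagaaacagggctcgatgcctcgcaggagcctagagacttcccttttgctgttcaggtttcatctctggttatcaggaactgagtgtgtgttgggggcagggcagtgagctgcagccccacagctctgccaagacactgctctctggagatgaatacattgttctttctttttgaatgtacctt
Batf3 at 17.0 kb, WT-specific, chr1:191115262-191115378: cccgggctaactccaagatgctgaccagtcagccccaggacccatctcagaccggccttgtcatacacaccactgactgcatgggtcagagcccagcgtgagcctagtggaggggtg
Batf3 at 17.4 kb, WT-specific, chr1:191115606-191115855: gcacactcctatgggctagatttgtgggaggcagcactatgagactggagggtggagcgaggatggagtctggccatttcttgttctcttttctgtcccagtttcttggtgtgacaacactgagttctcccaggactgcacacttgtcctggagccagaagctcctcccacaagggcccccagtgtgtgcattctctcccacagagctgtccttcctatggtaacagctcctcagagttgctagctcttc
Batf3 at 17.7 kb, WT-specific, chr1:191115915-191116171: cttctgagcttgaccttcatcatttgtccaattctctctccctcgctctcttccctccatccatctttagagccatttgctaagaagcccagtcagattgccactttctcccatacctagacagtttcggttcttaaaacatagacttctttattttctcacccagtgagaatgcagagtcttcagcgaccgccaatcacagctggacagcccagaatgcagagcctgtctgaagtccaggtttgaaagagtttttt
Batf3 at -11.6 kb, reduced, chr1:191086674-191086874: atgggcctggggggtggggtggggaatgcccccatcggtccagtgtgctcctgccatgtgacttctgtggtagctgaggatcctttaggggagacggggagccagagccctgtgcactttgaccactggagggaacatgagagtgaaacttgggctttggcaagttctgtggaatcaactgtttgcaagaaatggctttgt

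The WT-specific region at 17.7 kb had the highest pileup of the 4, at 2.11 and 1.55 PPM in WT replicates 1 and 2. The region at 17.4 kb stood at 1.51 and 1.35 PPM. The region at 11.8 kb stood at 1.41 and 1.31 PPM. The weakest, at 17.0 kb, stood at 0.937 and 0.614 PPM. The −log10 q ranged from 8.98 to 50.4 in WT replicate 1 and from 4.23 to 36.7 in WT replicate 2, and none of the 4 had a deposited peak in an IRF8KO library. The lowest of both ranges belonged to the region at 17.0 kb, and with a −log10 q of 5 or more required the count was 3.

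The IRF8KO libraries held 1.513 times as many tags as the WT libraries. At the WT mean, the 4 summits would hold between 61.1 and 144 overlapping cut sites in IRF8KO replicate 1 and between 51.3 and 121 in IRF8KO replicate 2, if pileup scaled with tag number. The lowest pileup deposited in the Batf3 window was 10 in IRF8KO replicate 1 and 7 in IRF8KO replicate 2. Because the limit for a call rises with the local background, the pileup at an uncalled position is not known, and no fold is given.

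Of the 18 regions at Batf3, 22.2% were WT-specific, beside 5.58% of all merged regions in the series. The 4 lie within one short stretch and are not independent of each other. Among 21728 protein-coding genes, 1.65% held 4 or more WT-specific regions in the same kind of window, and 202 genes held more than Batf3. With 1 WT library left out, so that the other sufficed, the count at Batf3 was 7 without WT replicate 2 and 4 without WT replicate 1.

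The shared region at 13.0 kb, chr1:191111044-191111762, was the strongest WT region of the window, at 3.22 and 3.21 PPM in replicates 1 and 2 of WT. In the IRF8KO replicates it stood at 0.673 and 0.800. Both IRF8KO values lay far below both WT values, and the difference was much larger than either spread (3.21 ± 0.00381 against 0.736 ± 0.0903, SD, n = 2 each), a WT mean 4.36-fold higher. Its neighbour at 16.7 kb, chr1:191114928-191115179, stood at 2.45 and 1.84 PPM in WT, against 0.292 and 0.695 in IRF8KO. Again the groups did not overlap, and the WT mean was 4.35-fold higher (2.15 ± 0.431 against 0.493 ± 0.285, SD, n = 2 each). Median-centred log2 ratios were -1.82 and -1.90, against -2.13 and -2.12 before. The authors' deposited fold enrichment, which divides each summit by the local background of its own library over up to 10 kb, differed less. At 13.0 kb it was 10.4 and 12.4 in WT, against 8.85 and 9.50 in IRF8KO, and at 16.7 kb it was 7.85 and 7.38, against 3.72 and 7.58, where the groups overlapped.

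Upstream, the region at -11.6 kb (chr1:191086607-191087147, between Nsl1 and Batf3) showed a gap of similar size. It stood at 1.28 and 1.35 PPM in WT, at 0.165 in IRF8KO replicate 1, where it was not strict, and at 0.272 in IRF8KO replicate 2. The WT mean was 6.02-fold higher (1.31 ± 0.0508 against 0.218 ± 0.0755, SD, n = 2 each). The adjacent region at -12.6 kb, over untranslated exon sequence of Nsl1, a gene for a kinetochore subunit, showed no such gap, at 2.17 and 1.84 PPM in WT, against 1.70 and 2.25 in IRF8KO.

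Further downstream the genotypes differed less. The region at 21.2 kb stood at 1.09 and 0.757 PPM in WT, against 0.343 and 0.725 in IRF8KO, with both IRF8KO values below both WT values. The WT mean was 1.73-fold higher (0.921 ± 0.233 against 0.534 ± 0.270, SD, n = 2 each), and the groups stayed apart after median-centring (log2 ratio -0.55), though WT replicate 2 and IRF8KO replicate 2 were close. In deposited fold enrichment the groups overlapped at 21.2 kb, at 4.93 and 4.35 in WT, against 4.84 and 6.91 in IRF8KO. The region at 24.6 kb stood at 1.66 and 1.41 in WT, against 1.02 and 2.02 in IRF8KO. The region at 27.6 kb stood at 2.53 and 1.74 in WT, against 2.41 and 3.13 in IRF8KO. At the last 2 the groups overlapped, whereas after median-centring they, and the region at -12.6 kb, were higher in both IRF8KO libraries than in either WT library.

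**Figure D1:**
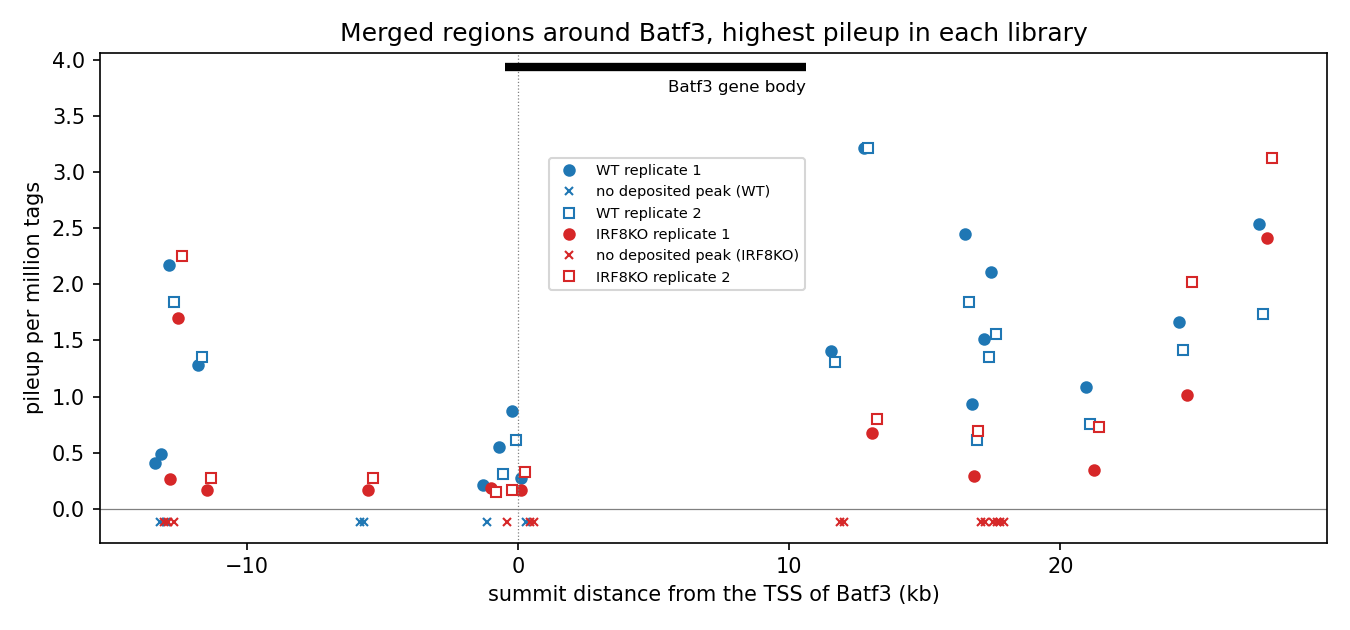
Pileup in PPM (y axis) of the 18 merged regions around Batf3 against the distance of the summit from the TSS in kb (x axis). Blue marks the WT and red the IRF8KO libraries, filled circles replicate 1 and open squares replicate 2, points are set slightly apart sideways, and crosses under the 0 line mark libraries with no deposited peak. Past the 3′ end, between 11.8 and 17.7 kb, IRF8KO libraries have crosses or low points, while the regions at -12.6 kb and 24.6 kb overlap.

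The Batf3 promoter was also lower in IRF8KO. Its region chr1:191098198-191098589, over the TSS and first coding exon, stood at 0.873 and 0.614 PPM in replicates 1 and 2 of WT, against 0.165 and 0.332 in those of IRF8KO. The groups did not overlap, and the WT mean was 2.99-fold higher (0.743 ± 0.184 against 0.249 ± 0.118, SD, n = 2 each). With the highest summit within 1 kb of any of the annotated starts of Batf3 taken instead, the log2 ratio was -1.51, and it was -1.24 after median-centring. The bases that RefSeq gives upstream of the start (GRCm38.p6), cut at the TSS of the coding transcript, are shown because the peak overlaps their 3′ part. Capitals here mark a match to the STAT motif (TTCNNNGAA), which lies upstream of the peak and outside it.

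Batf3 promoter, chr1:191098164-191098324: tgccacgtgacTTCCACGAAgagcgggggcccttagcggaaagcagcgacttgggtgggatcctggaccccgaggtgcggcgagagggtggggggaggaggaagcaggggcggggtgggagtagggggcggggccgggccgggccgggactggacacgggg

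Of the same 250-base promoter stretches in RefSeq, 7.02% hold a STAT word, so the match is a common one.

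The remaining Batf3 regions were weak. The region at -5.6 kb, chr1:191092515-191092788, was the only IRF8KO-specific one in the 3 windows, a class that holds 3.86% of all regions. It stood at 0.165 and 0.272 PPM in replicates 1 and 2 of IRF8KO. At that level the WT libraries would hold 10.3 and 10.7 cut sites, close to the lowest pileups of 10 and 8 deposited in this window. The region at -0.5 kb, upstream of the coding TSS, stood at 0.554 and 0.307 in WT, had no peak in IRF8KO replicate 1 and stood at 0.166 in IRF8KO replicate 2. The regions at -13.1, -12.9, -1.1 and 0.372 kb were each strict in 1 or 2 libraries only.

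Summed over the strict peaks of the window, Batf3 pileup was 24.3 and 17.9 PPM in replicates 1 and 2 of WT, against 7.22 and 10.9 in those of IRF8KO. The groups did not overlap, and the log2 ratio of the means was -1.22 (21.1 ± 4.50 against 9.07 ± 2.61, SD, n = 2 each). Strict peaks covered 5153 and 4129 bp in WT, against 3244 and 3402 bp in IRF8KO. The mean per peak was 1.28 and 1.38 in WT, against 0.722 and 0.992 in IRF8KO, so both the number of peaks and their height were lower. Of protein-coding genes with a ratio, 6.53% had a lower one, the median being -0.35. Both IRF8KO sums lay under both WT sums for 35.4% of genes, also with a log2 ratio at or below -1 for 9.27% of genes with a ratio, and above both for 4.81%. With 10 kb flanks, which leave out the outer regions, the ratio was -2.59.

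The most alike protein-coding genes in summed pileup over the 4 libraries, by the smallest Euclidean distance of log2(sum + 1), were Hps4 (0.116), Tjp1 (0.168) and Lars2 (0.210). Their ratios were -1.17, -1.36 and -1.12, with 2, 6 and 0 WT-specific regions. For Batf the nearest were Rfwd3, Rbm42 and Nprl3 (0.0660 to 0.0700), and for Batf2 they were BC051142, Wdtc1 and Mark2 (0.0718 to 0.0873).

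**Figure D2:**
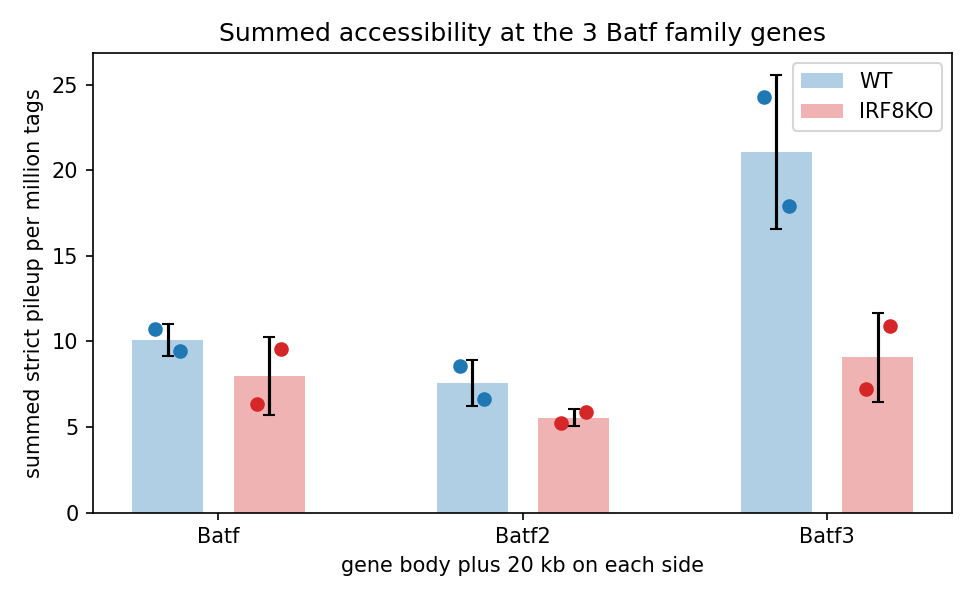
Summed strict pileup in PPM (y axis) over the gene body plus 20 kb for Batf, Batf2 and Batf3 (x axis). Bars are means, error bars SD over 2 libraries, and points single libraries; at Batf3 the WT points (24.3 and 17.9) stand above the IRF8KO points (7.22 and 10.9), and at Batf the groups overlap.

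Batf2 showed no genotype-specific region, and its 2 reduced regions were its promoter and a region upstream. Batf2 (ENSMUSG00000039699.14) lies on the plus strand at chr19:6140983-6172476. The annotation starts the gene at a long non-coding transcript in the promoter it shares with Arl2, a small GTPase gene, while the coding transcripts start further downstream. The coding promoter stood at 0.383 and 0.327 PPM in WT, against 0.216 and 0.242 in IRF8KO. The groups did not overlap, with a WT mean 1.55-fold higher (0.355 ± 0.0397 against 0.229 ± 0.0183, SD, n = 2 each). Before division by tags the pileups were low and alike, at 18 and 16 in WT, against 17 and 16 in IRF8KO. Of the shared regions of the series, 23.6% had a lower ratio.

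The region at -7.1 kb, chr19:6157138-6157679, lies in an intron of the long transcript. It stood at 1.24 and 1.19 PPM in WT, against 0.292 and 0.468 in IRF8KO. The WT mean was 3.19-fold higher (1.21 ± 0.0348 against 0.380 ± 0.125, SD, n = 2 each), and only 3.25% of regions strict in all 4 libraries had a lower ratio. Median-centred log2 ratios were -1.41 here and -0.31 at the coding promoter, with groups still apart at both. The summit window at -7.1 kb is shown because it held an ISRE word, in capitals, in the plus strand of GRCm38.

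Batf2 at -7.1 kb, chr19:6157254-6157454: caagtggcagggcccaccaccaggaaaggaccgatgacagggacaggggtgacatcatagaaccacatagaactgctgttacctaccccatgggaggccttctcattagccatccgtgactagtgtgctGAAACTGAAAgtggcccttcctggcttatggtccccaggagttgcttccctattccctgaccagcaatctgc

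The word GAAACTGAAA lay at chr19:6157383-6157392, 34 bp downstream of the summit. An ISRE, the element at which interferon regulatory factors bind after interferon, was searched as GAAA, any 2 bases, GAAA. It was present in 3.13% of summit windows of all regions, in 6.33% of WT-specific and in 2.96% of IRF8KO-specific ones. No window at Batf or Batf3 held it.

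The other Batf2 regions lay at or near neighbouring genes. The peak at the promoter shared with Arl2 stood at 2.47 and 1.68 PPM in WT, against 1.48 and 2.099 in IRF8KO, and the Snx15 promoter, of a sorting nexin gene, stood at 3.51 and 2.29 in WT, against 2.14 and 2.45 in IRF8KO. At both the groups overlapped. The region at 25.1 kb, in an intron of Majin, a gene for a meiotic telomere protein, went the other way, at 0.298 and 0.205 in WT, against 0.470 and 0.634 in IRF8KO. The region at 18.2 kb was near the limit, at 0.151 to 0.225 PPM in all 4. The summed pileup of the window was 8.54 and 6.63 in WT, against 5.22 and 5.89 in IRF8KO, a log2 ratio of -0.45 (7.58 ± 1.35 against 5.55 ± 0.476, SD, n = 2 each). After median-centring this was -0.12, and with 10 kb flanks -0.85.

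Batf had no genotype-specific region, and of its 3 strongest regions 2 overlapped between genotypes and 1 was lower in IRF8KO. Batf (ENSMUSG00000034266.6) lies on the plus strand at chr12:85686669-85709087. The intronic region at 19.05 kb, chr12:85705176-85705883, was the strongest in the 3 windows, at 3.60 and 3.48 PPM in WT, against 2.54 and 3.62 in IRF8KO. The intronic region at 11.7 kb, chr12:85698152-85698604, stood at 2.47 and 2.05 in WT, against 1.54 and 2.11 in IRF8KO. At both the groups overlapped, and the median-centred log2 ratios were 0.08 and -0.01.

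A region with its summit 1755 bp past the 3′ end of Batf, at 24.2 kb (chr12:85710544-85711104), was the second strongest Batf region in WT. It stood at 3.39 and 2.52 PPM in WT, against 1.15 and 1.77 in IRF8KO, a WT mean 2.02-fold higher (2.95 ± 0.616 against 1.46 ± 0.433, SD, n = 2 each), with a median-centred log2 ratio of -0.73. The region at -16.4 kb was higher in IRF8KO, at 0.298 and 0.389 in WT against 0.406 and 0.951, though WT replicate 2 and IRF8KO replicate 1 nearly met.

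The Batf promoter was weak in every library, at 0.298 and 0.266 PPM in WT, against 0.267 and 0.393 in IRF8KO. The groups overlapped, and the log2 ratio of 0.22 was -0.08 without IRF8KO replicate 2. It was 0.50 after median-centring, and the summit at the TSS was then higher in both IRF8KO libraries than in either WT library. The region at 0.405 kb stood at 0.277 and 0.266 in WT, against 0.152 and 0.362 in IRF8KO, and that at 1.41 kb at 0.213 and 0.266 in WT, against 0.140 and 0.166 in IRF8KO. The other 3 Batf regions, at -12.6, -6.39 and 0.647 kb, were each found in 1 library. The summed pileup was 10.7 and 9.43 in WT, against 6.36 and 9.59 in IRF8KO, with overlapping groups and a log2 ratio of -0.34 (10.1 ± 0.924 against 7.97 ± 2.28, SD, n = 2 each), close to the median of -0.35 over all genes.

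**Figure D3:**
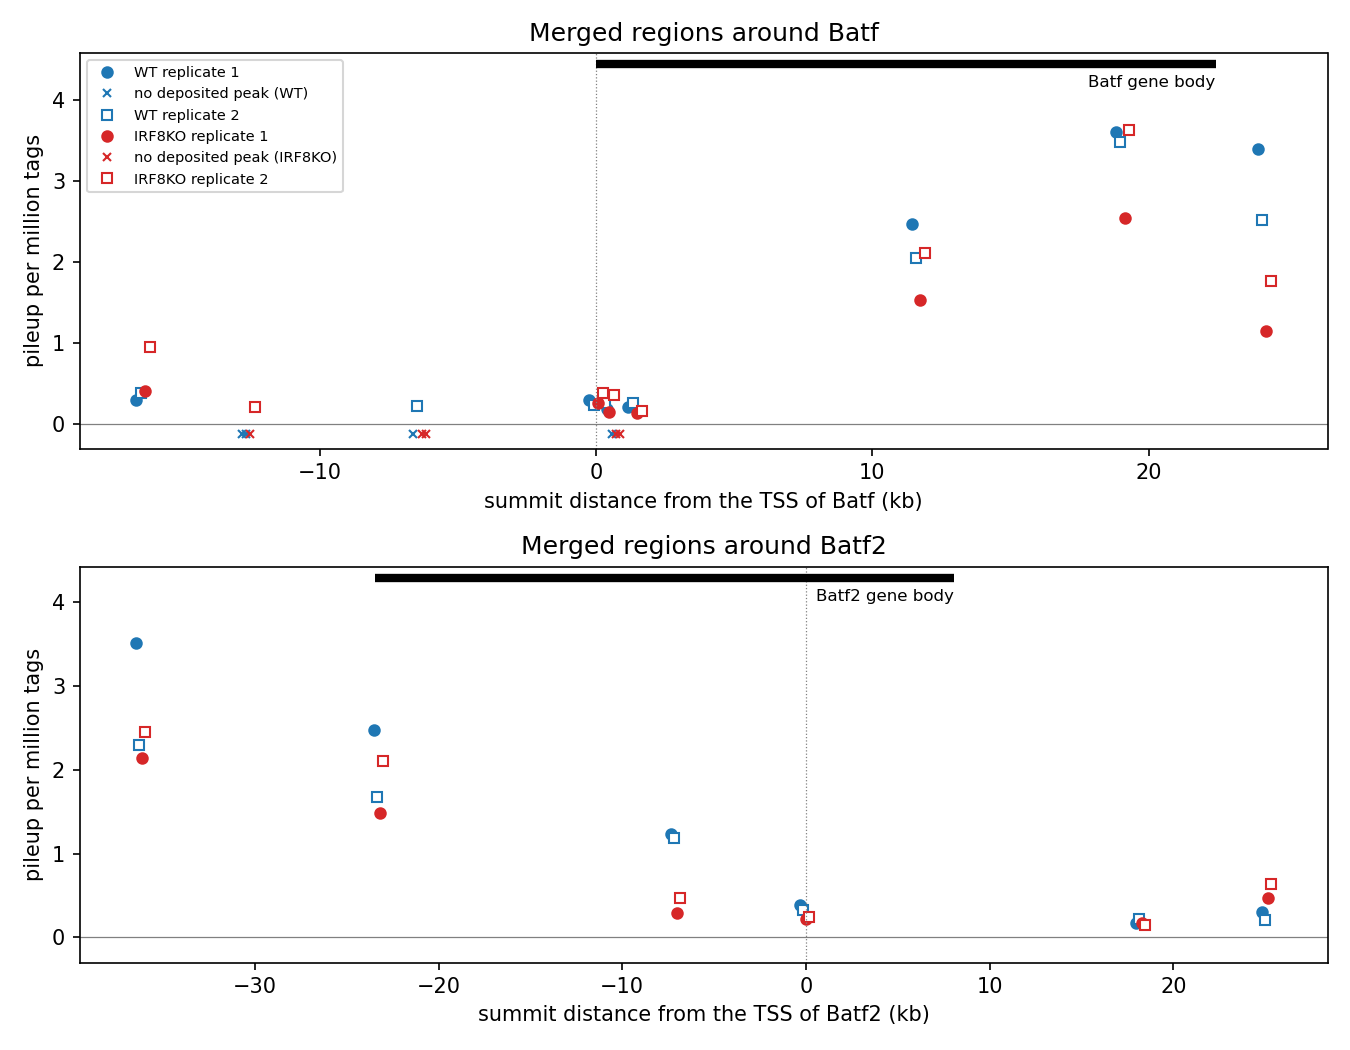
Pileup in PPM (y axis) of the regions around Batf (upper panel) and Batf2 (lower panel) against summit distance from the TSS of the coding transcript in kb (x axis). Colours and marks are as in the plot of the Batf3 window; the Batf regions at 11.7 and 19.05 kb overlap between genotypes, and the Batf2 region at -7.1 kb does not.

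Across the 3 windows, 18 regions were strict in all 4 libraries, 52.9% of the 34 beside 31.0% of all regions. Both IRF8KO values lay below both WT values in 7 of the 18 and above in 2, where 36.7% and 11.2% of all such regions did so. With a log2 ratio at or below -1 as well there were 5, beside 11.2% of all such regions, 3 of them at Batf3. After median-centring 7 lay below and 6 above, beside 28.9% and 29.9%. The median log2 ratio was -0.79 over the 7 such regions at Batf3, -0.34 over 5 at Batf2 and -0.14 over 6 at Batf. The threshold for strict peaks fell between values close together, with Batf at 0.647 kb just inside in WT replicate 1 (−log10 q 2.24) and Batf2 at 18.2 kb just outside in IRF8KO replicate 2 (1.96). A further 20 deposited peaks, counted over the 4 lists, overlapped no merged region and reached at most 0.469 PPM.

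**Figure D4:**
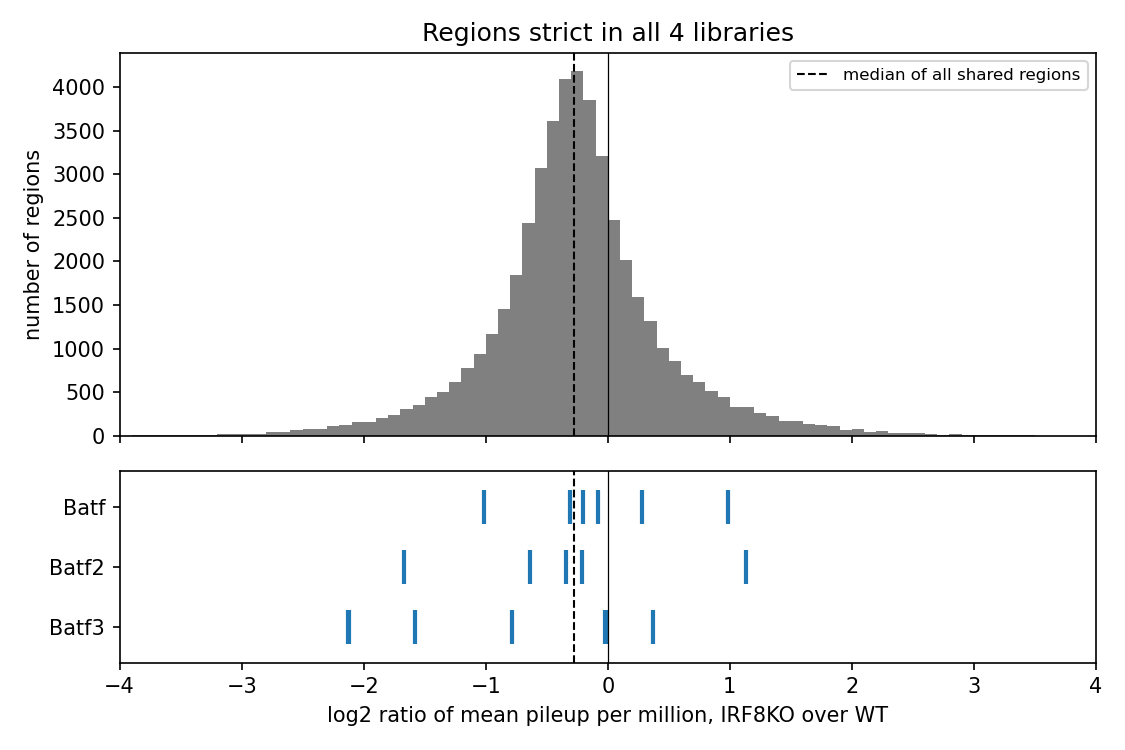
The upper panel counts the 48262 regions strict in all 4 libraries (y axis) by the log2 ratio of mean pileup in PPM, IRF8KO over WT (x axis), with the median of -0.28 dashed. The lower panel marks the 18 such regions of the 3 genes on the same axis; 2 marks of Batf3 coincide near -2.12, left of all Batf and Batf2 marks.

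Within 100 bp of the summits, 9 motif families were searched on both strands. An ETS-IRF composite, at which IRF8 binds with PU.1, was searched as GGAA, any 2 bases, GAAA. It was found once in the 34 windows, as GGAAGAGAAA at chr1:191110068-191110077 in the WT-specific Batf3 region at 11.8 kb. This motif was present in 4.30% of all windows and in 18.7% of WT-specific ones, so the other 3 WT-specific Batf3 regions were among the majority without it.

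AP-1 (TGAGTCA), the site of BATF with JUN, was found in none of the 34 windows and in 5.91% of all. The AP-1-IRF composite, with the 2 sites adjoining or spaced, was likewise absent, as it was from all but 0.286% of windows. NF-kB, found in 0.323% of all windows, was absent too. RUNX (TGTGGTT), found in 5.58% of all windows, was present at the Batf promoter, at Batf2 -7.1 kb and at Batf3 -13.1 kb. CEBP (TTGCNNAA), found in 9.54%, was present at Batf3 -11.6 kb. PU.1 (GAGGAAGT), found in 7.74%, was present at Batf2 18.2 kb, and STAT, found in 5.92%, occurred 2 times near Batf 0.647 kb. These matches describe letters in the windows and not bound sites.

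Genes of the same pathway were described for comparison. For 11 genes of possible dimer partners (JUN, FOS, ATF3, JDP2 and small MAF proteins), 5 of 145 regions were WT-specific (3.45%, beside 5.58% of all regions) and 6 IRF8KO-specific (4.14%, beside 3.86%). Summed pileup was lower in both IRF8KO libraries for 5 of the 11, beside 35.4% of all genes, and higher for none, beside 4.81%. The median log2 ratio was -0.39 against -0.35 over all genes, so these values lay near those of all genes. Fos held 2 WT-specific regions, and Jdp2 and Jund held 1 of each class. Atf3, the gene of a stress-induced factor, held 1 IRF8KO-specific region.

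Among 14 genes described as targets of or dependent on BATF or BATF3, 17 of 195 regions were WT-specific (8.72%, beside 5.58% of all regions) and 7 IRF8KO-specific (3.59%, beside 3.86%). Summed pileup was lower in both IRF8KO libraries for 6 of 14, near the 35.4% of all genes, and higher for none, beside 4.81%, with a median log2 ratio of -0.42 against -0.35 over all genes. Prdm1, which encodes the repressor BLIMP-1, held 5 WT-specific regions. Ciita, the coactivator gene of MHC class II, held 3 WT-specific and 1 IRF8KO-specific, Il12b, the p40 cytokine subunit gene, held 3 WT-specific, and Bcl6 held 1 WT-specific and 2 IRF8KO-specific. Of the 31 regions of the IRF partners, 3.23% were WT-specific and 9.68% IRF8KO-specific, beside 5.58% and 3.86% of all regions. Irf4 held 1 IRF8KO-specific region and Irf8 held 1 WT-specific and 2 IRF8KO-specific.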

How the data were processed

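The files were ATAC-seq peak lists of 4 libraries, 1 list each. MACS version 2.1.1.20160309 was run by the authors on single libraries with no control file, per the file headers. The p cutoff was 0.01, with cut sites shifted by 37 bp, extended to 73 bp and a local background of 10 kb. The submitters' processing notes name Bowtie2 and the mm10 build. The deposited pileup is a signal that is not scaled for depth. The deposited fold enrichment, a ratio to the local background, was used only to describe single regions downstream of Batf3. The deposited p and q values are given as −log10; the headers say q was not calculated, but the column holds values above 0 in every list and was used. Tag size was 50 bp in WT and 49 bp in IRF8KO per the file headers, so it and depth cannot be told apart from genotype.

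Intervals with several summits were reduced to 1 peak with the highest pileup and the highest −log10 q. Strict peaks on the 19 autosomes and X were merged, and presence needed an overlap of 1 bp. Regions were annotated with GENCODE M21, and bases were read from the GRCm38 RefSeq genome. Promoter entries of RefSeq matched 2 of the 3 genes, all but Batf2, and the sequence of the Batf2 coding promoter and its motif matches are not reported here. Python 3.11.15, pandas 2.3.3 and pysam 0.24.0 were used, and the merging was tested on simulated data. The members and lists were chosen with earlier results of these data known. All genotype-specific and promoter regions, the 3 other strongest per window, up to 4 genes per list by number of genotype-specific regions and 3 most alike genes were to be named; the other regions were named after their values were seen. Marker and partner genes were read in the same way.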

Additional observations from a re-analysis of the deposited data

How the results depend on the processing

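No paired analysis was possible because the values come from no test, and the labels do not tie equal replicate numbers of the 2 genotypes together. The 4 WT-specific regions at Batf3 stayed between 3 and 5 in 8 of 10 alternatives; flanks of 50 kb gave 7, and leaving out a replicate gave 4 to 7, the highest without WT replicate 2. The Batf3 ratios of summed and promoter pileup stayed negative in every alternative run (summed -2.59 to -0.93, promoter -1.97 to -1.16). The summed ratio was -2.59 with 10 kb flanks, which hold fewer regions. At Batf2 the summed ratio moved to -0.12 with medians of shared regions set equal and to -0.85 with 10 kb flanks. The Batf2 ratio at the promoter shared with Arl2, -0.21, became 0.0943 with medians set equal, and ranged from -0.48 to 0.10 with a replicate left out, above 0 without WT replicate 1 (0.0956) and without IRF8KO replicate 1 (0.0173). The Batf promoter ratio of 0.22 ranged from -0.0816, without IRF8KO replicate 2, to 0.48 with a replicate left out, and was 0.50 with medians set equal. The cause of these moves was not tested. Summed ratios at Batf ranged from -0.66 to -0.06. The pileup expected in WT at the single IRF8KO-specific region lay near the lowest deposited there, and the part of depth in that call was not tested.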
